A study of Homo sapiens with 8 samples.

Results

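The genes described here are 10 transcription factors and cofactors of the E2F, RB and MYB families: E2F1, E2F2, E2F3, E2F7, E2F8, RB1, RBL1, RBL2, MYBL1 and MYBL2. They were taken by gene symbol from a list of names that was drawn up with earlier results of these data known, and all 10 were found among the 19414 coding genes of the files. All 10 also passed the filter on low read numbers, which left 11985 genes for testing.

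E2F factors bind DNA with a DP partner and switch on the genes that a cell needs to enter S phase. The pocket proteins RB1, RBL1 (p107) and RBL2 (p130) bind E2Fs and hold these genes down until cyclin-dependent kinases phosphorylate them. E2F7 and E2F8 repress the same genes later in the cycle without a DP partner, and MYBL2 joins the MuvB complex to activate genes of G2 and mitosis. MYC is known to act on the same step, through cyclin D, its kinases and the E2F genes themselves.

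The assay was TT-seq, which reads RNA that cells have just transcribed and tagged with the uridine analogue 4-thiouridine, in the human osteosarcoma line U2OS. The genotype labels give 4 groups of 2 libraries: Zab + MYC O/E, MYC O/E (MYC overexpression), Zab and WT. The labels give neither the construct behind Zab nor the vector, promoter or clone of either construct, and Zαβ is, as background, the usual name of the part of the editing enzyme ADAR that binds Z-form nucleic acid. Whether the replicates were grown apart is not stated, so every p-value reflects the spread between the libraries at hand, and that spread may be technical alone.

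The levels of MYC and ADAR put the labels in doubt. MYC averaged 759 ± 14.8 CPM (read counts relative to library size, with TMM scaling between libraries) in the libraries labelled Zab + MYC O/E, 6580 ± 8.31 CPM in those labelled MYC O/E, 983 ± 68.8 CPM in Zab and 761 ± 17.5 CPM in WT (SD, n = 2 each). High MYC was thus found under the label MYC O/E and not under Zab + MYC O/E. ADAR averaged 32170 ± 67.5 CPM in the libraries labelled Zab + MYC O/E, 454 ± 12.3 CPM in MYC O/E, 552 ± 33.4 CPM in Zab and 33800 ± 31.8 CPM in WT (SD, n = 2 each). The libraries labelled Zab + MYC O/E therefore resembled those labelled WT in both genes, and ADAR was low under Zab and MYC O/E. Whether labels were exchanged between libraries was not tested, and an exchange could turn the sign of any comparison below, those against WT included. Group names below are the labels of the libraries, and every direction is that between libraries as labelled.

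Libraries held between 1839960 and 4072059 reads in exons of coding genes. The 2 libraries labelled Zab had 6.44 and 6.66 such reads per 100 tags, against 13.1 to 13.8 in the other 6. They also held the fewest such reads, which limits the precision for low genes. The 2 libraries of a group differed by a chi-square of 2.02 to 2.08 per gene. Reads mostly came in twos, so this is about the counting error, and the replicates may be technical. The libraries labelled Zab + MYC O/E and WT differed by 2.90 to 3.03 per gene, and all other pairs of groups by 35.0 to 53.1. VIM, the mesenchymal filament gene, had 1803 to 3204 CPM. The summed level of the 12 osteoblast and mesenchymal markers was 2381 to 4083 CPM, mostly from VIM, SPARC and COL1A1. SP7 and TWIST1 were at 0 in all 8 libraries. COL1A2, ALPL, IBSP and BGLAP reached at most 1.20, 2.40, 1.29 and 1.60 CPM in any library. None of these last genes, nor SP7 and TWIST1, passed the filter on low reads. The 7 epithelial markers summed to 4.64 to 9.98 CPM and the 5 endothelial markers to 1.23 to 3.62 CPM. The 6 haematopoietic markers summed to 9.86 to 41.4 CPM, of which CD68 gave 9.86 to 41.4 CPM, while CD3E was at 0 in all libraries. These markers moved with the labels. CD68 was 3.40-fold lower in MYC O/E than in WT (log2 change -1.65, adjusted p = 7.95e-07), and of the 6 osteoblast and mesenchymal markers tested 5 were called lower there and RUNX2 higher. Their part in the results below was not tested. In bulk RNA, fewer cells of a type or cycle phase and less RNA per cell cannot be told apart.

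Several of these genes are known to carry E2F sites at their own start, so the promoters are shown first. RefSeq's promoter table (GRCh38.p14) held a window of 250 bases that ends at the annotated gene start for 7 of the 10 genes. The letters TTTNNCGC, a form of the E2F site, were searched on both strands and are in capitals below. They were found in 4 of these 7 windows (57.1%), against 837 of 8490 windows of tested genes (9.86%) and 5.94% of all 24885 windows. Also in capitals are TTTGAA in E2F3, the letters of the CHR element that MuvB complexes bind, and CACGTG in MYBL2, the E-box letters that MYC binds with MAX. TTTGAA was present in 8.54% and CACGTG in 9.21% of windows of tested genes. The windows of E2F1, E2F2, E2F3 and RBL1 hold the E2F letters, and those of E2F7 and MYBL2 are shown because they lack these letters and had the smallest adjusted p of the 10 genes in MYC O/E against WT. The coordinates are chr20:33686386-33686635 on the minus strand for E2F1, chr1:23531234-23531483 (minus) for E2F2, chr6:20401629-20401878 (plus) for E2F3, chr20:37095998-37096247 (minus) for RBL1, chr12:77065570-77065819 (minus) for E2F7 and chr20:43666864-43667113 (plus) for MYBL2.
E2F1 promoter: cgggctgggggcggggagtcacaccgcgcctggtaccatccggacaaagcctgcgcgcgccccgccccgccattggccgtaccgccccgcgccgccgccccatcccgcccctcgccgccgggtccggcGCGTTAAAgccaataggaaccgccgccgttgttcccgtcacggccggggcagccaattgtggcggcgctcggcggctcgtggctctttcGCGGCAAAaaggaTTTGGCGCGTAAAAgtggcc
E2F2 promoter: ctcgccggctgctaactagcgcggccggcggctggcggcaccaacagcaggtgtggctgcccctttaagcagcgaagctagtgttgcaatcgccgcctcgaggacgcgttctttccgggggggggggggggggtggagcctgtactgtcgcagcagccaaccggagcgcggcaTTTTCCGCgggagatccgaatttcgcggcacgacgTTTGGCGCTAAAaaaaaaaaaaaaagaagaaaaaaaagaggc
E2F3 promoter: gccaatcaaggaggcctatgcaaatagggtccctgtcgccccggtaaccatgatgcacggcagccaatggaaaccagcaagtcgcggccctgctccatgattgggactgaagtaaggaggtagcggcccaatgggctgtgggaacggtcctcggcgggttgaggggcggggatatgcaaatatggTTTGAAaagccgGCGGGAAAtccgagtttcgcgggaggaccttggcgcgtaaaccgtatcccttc
RBL1 promoter: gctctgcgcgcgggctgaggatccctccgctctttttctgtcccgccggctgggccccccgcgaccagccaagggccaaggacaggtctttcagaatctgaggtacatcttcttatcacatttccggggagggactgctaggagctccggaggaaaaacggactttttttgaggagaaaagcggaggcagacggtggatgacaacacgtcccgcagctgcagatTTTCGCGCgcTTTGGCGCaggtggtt
E2F7 promoter: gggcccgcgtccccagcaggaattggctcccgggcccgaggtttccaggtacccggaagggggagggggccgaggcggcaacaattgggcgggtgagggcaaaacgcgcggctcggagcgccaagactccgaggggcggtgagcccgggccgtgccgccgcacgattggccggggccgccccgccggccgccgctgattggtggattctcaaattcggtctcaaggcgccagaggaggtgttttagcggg
MYBL2 promoter: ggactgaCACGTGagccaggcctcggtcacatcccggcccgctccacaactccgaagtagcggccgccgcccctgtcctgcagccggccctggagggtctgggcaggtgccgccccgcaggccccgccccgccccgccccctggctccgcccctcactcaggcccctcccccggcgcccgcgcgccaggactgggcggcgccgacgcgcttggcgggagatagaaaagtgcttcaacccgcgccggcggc

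In the E2F1 window the letters began 122, 33, 20 and 14 bases before the start, and the matches at 20 and 14 overlap on opposite strands. In the E2F2 window they began at 77, 42 and 38 bases, the last pair overlapping. E2F3 had 1 match at 53 bases, with the CHR letters at 65 bases, and RBL1 had 2 matches, at 26 and 16 bases. In MYBL2 the E-box letters began 243 bases before the start. A match describes letters and not a bound site, and no match says only that these letters are not in the window. RBL2 matched the table and its window held none of the 3 motifs.

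In TMM-scaled CPM, the libraries labelled MYC O/E had more new RNA than WT of the activator genes E2F1, E2F2 and E2F3 and of MYBL2. They had less of the repressor gene E2F7 and of RB1. In that comparison 6 of the 10 genes were called at an adjusted p under 0.05, 4 higher and 2 lower. Of all tested genes 44% were called, 22.2% higher and 21.8% lower, so the number called is not far from the background of this comparison. With the libraries labelled WT averaged to 1 sample, and those labelled Zab + MYC O/E likewise, fewer of all tested genes were called. E2F1, E2F3 and RB1 then lost their calls, at 0.44, 0.31 and -0.55. E2F2, MYBL2 and E2F7 kept theirs, at 1.07, 0.66 and -1.27. In the same CPM, the libraries labelled Zab had more new RNA of E2F1 and MYBL2 than WT. They had less of all 3 pocket protein genes and of MYBL1. Again 6 of the 10 genes were called, 2 higher and 4 lower, where 49.7% of all tested genes were called, 23.8% higher and 25.9% lower. With those pairs as 1 sample each, E2F1 was 0.68, MYBL2 0.85, RB1 -1.95, RBL1 -1.19, RBL2 -1.09 and MYBL1 -2.92. On the deposited scale, 1 of the 10 genes was called higher and 7 lower in Zab over WT. Of all tested genes, 575 were called higher and 6882 lower on that scale. No gene of the 10 was called between Zab + MYC O/E and WT, where 0.601% of all tested genes were called. The comparisons share libraries, so they are given side by side and not set against each other.

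**Figure D1:**
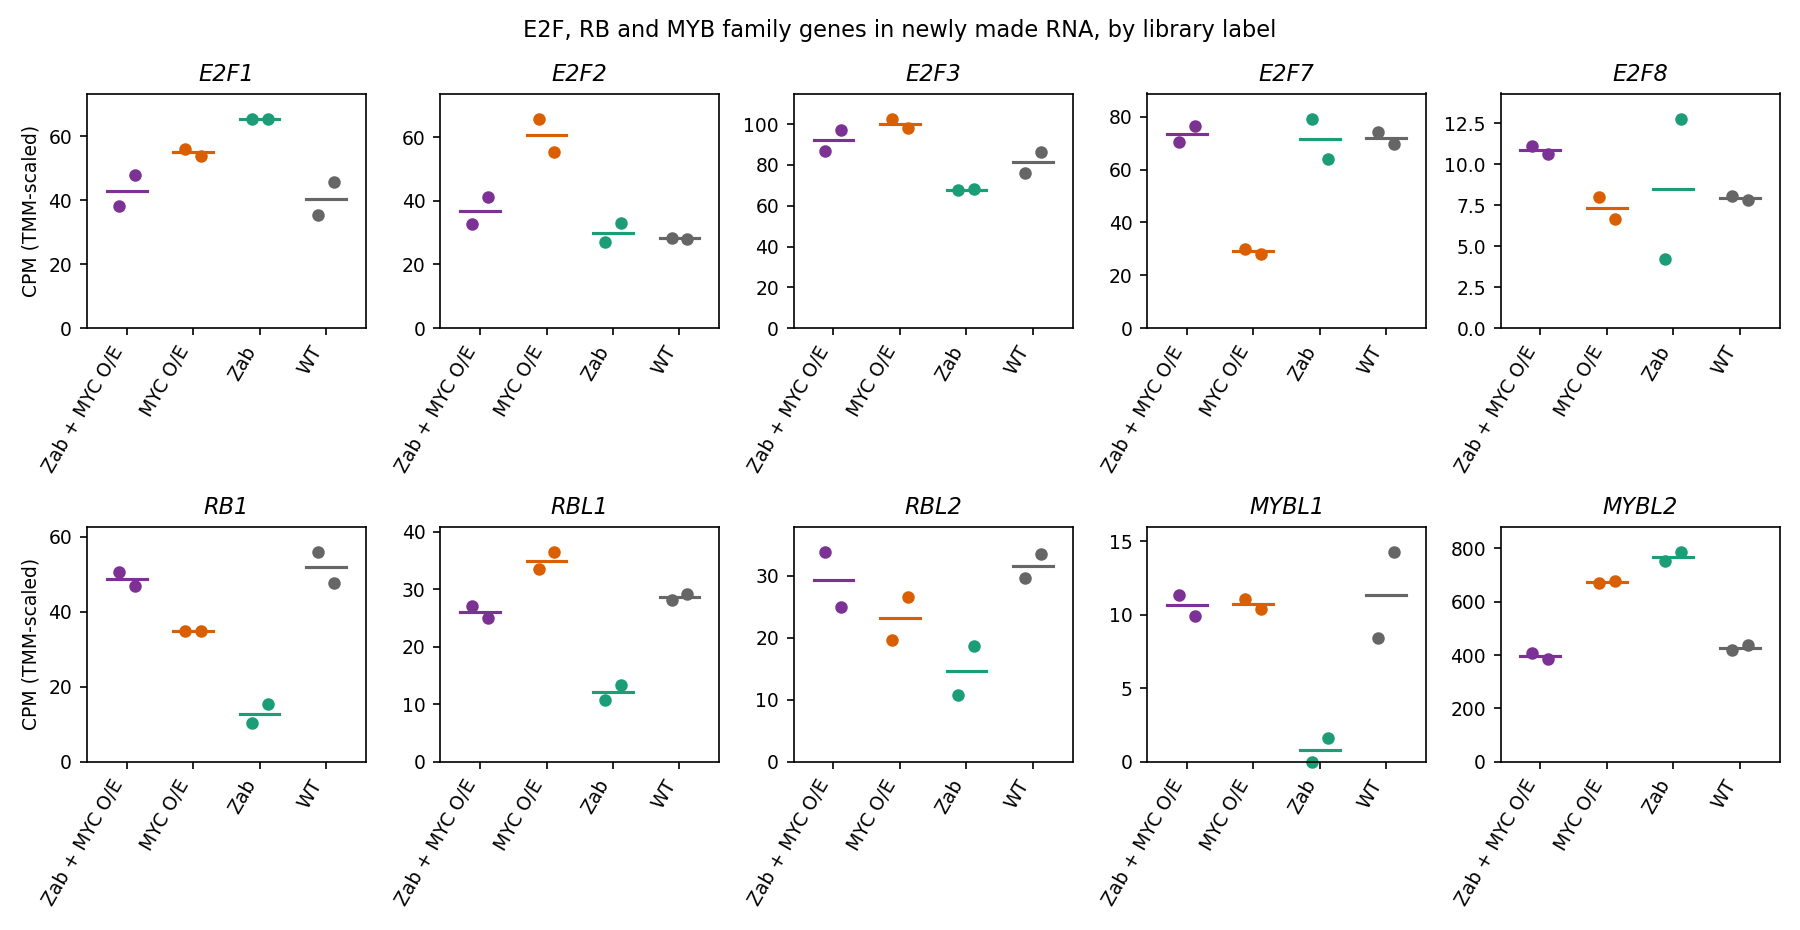
Level of each gene in each library, in TMM-scaled CPM on linear axes that start at 0, by library label. Points are the 2 libraries of a group and lines their mean. E2F7 stands lowest in the libraries labelled MYC O/E, and RB1, RBL1, RBL2 and MYBL1 stand lowest in those labelled Zab.

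E2F1 is an activator E2F and lies on chr20:32263283-32274191, minus strand, of the hg19 annotation used by the authors. It had 38.2 and 47.7 CPM in the libraries labelled Zab + MYC O/E, 56.0 and 53.7 CPM in MYC O/E, 65.4 and 65.4 CPM in Zab, and 35.2 and 45.6 CPM in WT. Both libraries labelled MYC O/E and both labelled Zab lay above all 4 of the others, which overlapped. Relative to WT the log2 change was 0.44 for MYC O/E (SE 0.17, adjusted p = 0.0321, limma with Benjamini-Hochberg adjustment over 11985 genes, as for every adjusted p below). For Zab over WT it was 0.69 (SE 0.17, adjusted p = 0.00112), a ratio of mean CPM of 1.62. The rise with MYC O/E lost its call in DESeq2 (adjusted p = 0.0813) and without MYC O/E replicate 1 (adjusted p = 0.157), MYC O/E replicate 2 (adjusted p = 0.102) or WT replicate 1 (log2 change 0.26, adjusted p = 0.314). On the deposited scale, where all genes shifted by -0.63 for Zab over WT, E2F1 was at 0.07 (adjusted p = 0.736).

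E2F2, another activator E2F (hg19 chr1:23832930-23857725, minus strand), had 32.8 and 41.0 CPM in the libraries labelled Zab + MYC O/E, 65.8 and 55.2 CPM in MYC O/E, 27.0 and 33.0 CPM in Zab, and 28.4 and 28.1 CPM in WT. The libraries labelled MYC O/E stood above all others, and those labelled Zab spanned the values of WT. The ratio of MYC O/E over WT was 2.14, a log2 change of 1.06 (SE 0.19, adjusted p = 4.23e-05). This was the greatest rise among the 10 genes in that comparison. Zab over WT was 0.07, with a 95% interval of -0.31 to 0.46, and on the deposited scale it was -0.53 and called (adjusted p = 0.0163).

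E2F3, the third activator (hg19 chr6:20402110-20493945, plus strand), had 87.0 and 97.2 CPM in the libraries labelled Zab + MYC O/E, 102.7 and 97.9 CPM in MYC O/E, 67.8 and 68.1 CPM in Zab, and 76.0 and 86.6 CPM in WT. The groups lay close together, with Zab lowest and MYC O/E highest. The log2 change of MYC O/E over WT was 0.30 (SE 0.12, adjusted p = 0.0470), just inside the threshold. It was not called by DESeq2 (adjusted p = 0.107) or with library totals in place of TMM (adjusted p = 0.108), nor without any 1 library labelled Zab + MYC O/E or MYC O/E or without WT replicate 1 (adjusted p = 0.0615 to 0.289). Zab over WT was -0.25 (SE 0.12, adjusted p = 0.0918), and this was called with library totals, at -0.45 (adjusted p = 0.00315).

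E2F7, an atypical E2F that represses E2F1 and other S-phase genes, lies on hg19 chr12:77415031-77459349, minus strand. It had 70.2 and 76.4 CPM in the libraries labelled Zab + MYC O/E, 29.9 and 28.1 CPM in MYC O/E, 79.2 and 63.8 CPM in Zab, and 74.0 and 69.8 CPM in WT. The libraries labelled MYC O/E stood far below the other 6, which overlapped. The level was 2.48-fold lower in MYC O/E than in WT, a log2 change of -1.28 (SE 0.15, adjusted p = 6.92e-08). This was the deepest fall among the 10 genes there, and it was called in both count tests, under each scaling and filter and without each library in turn, at -1.34 to -0.80. Zab over WT was -0.02, with a 95% interval of -0.32 to 0.29, and on the deposited scale it was -0.64 and called (adjusted p = 0.000488), where all genes shifted by -0.63.

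E2F8, the other atypical E2F, had few reads. It had 11.1 and 10.6 CPM in the libraries labelled Zab + MYC O/E, 7.999 and 6.66 CPM in MYC O/E, 4.202 and 12.8 CPM in Zab, and 8.08 and 7.84 CPM in WT. The 2 libraries labelled Zab held the lowest and the highest value, from 7 reads in the lowest library. No difference was detectable at this depth. The log2 change was -0.11 for MYC O/E over WT (95% interval -0.92 to 0.70) and -0.08 for Zab over WT (95% interval -0.89 to 0.73).

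RB1, the retinoblastoma protein that binds and silences the activator E2Fs, spans 178 kb on hg19 chr13:48877883-49056026, plus strand. It had 50.6 and 47.0 CPM in the libraries labelled Zab + MYC O/E, 34.8 and 34.8 CPM in MYC O/E, 10.2 and 15.4 CPM in Zab, and 55.9 and 47.7 CPM in WT. The order of the groups was Zab, then MYC O/E, then the other 2, which overlapped. Zab over WT was -1.96 (SE 0.21, adjusted p = 9.56e-09), 4.04-fold lower in Zab. MYC O/E over WT was -0.56 (SE 0.21, adjusted p = 0.0297). The fall with MYC O/E was -0.07 on the deposited scale (adjusted p = 0.783), where all genes shifted by 0.47, and -0.42 after a trend along gene span was removed (adjusted p = 0.102). It also lost its call without any 1 of the 4 libraries labelled MYC O/E or WT (adjusted p = 0.0521 to 0.204).

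RBL1 encodes p107, a pocket protein that mostly binds repressor E2Fs such as E2F4, on hg19 chr20:35624755-35724400, minus strand. It had 27.1 and 24.98 CPM in the libraries labelled Zab + MYC O/E, 33.5 and 36.5 CPM in MYC O/E, 10.8 and 13.3 CPM in Zab, and 28.1 and 29.2 CPM in WT. The libraries labelled Zab stood lowest and those labelled MYC O/E highest. Zab over WT was -1.19 (SE 0.22, adjusted p = 8.06e-05). MYC O/E over WT was 0.28 (SE 0.22, adjusted p = 0.332) and was not called, but on the deposited scale it was 0.76 and called (adjusted p = 0.00472), where all genes shifted by 0.47.

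RBL2 encodes p130, the pocket protein of the DREAM complex of resting cells. It had 33.8 and 24.98 CPM in the libraries labelled Zab + MYC O/E, 19.6 and 26.6 CPM in MYC O/E, 10.8 and 18.6 CPM in Zab, and 29.7 and 33.5 CPM in WT. The libraries labelled Zab lay below all 6 others, among which MYC O/E overlapped Zab + MYC O/E. Zab over WT was -1.10 (SE 0.26, adjusted p = 0.000914). The value was -0.73 without Zab replicate 1 and -1.46 without Zab replicate 2. MYC O/E over WT was -0.45 (SE 0.26, adjusted p = 0.166). The transcript the authors kept for a gene differed between libraries for RBL1, RBL2, E2F8 and MYBL1, with exon lengths of 5640 to 5778, 4611 to 4811, 3442 to 3681 and 4949 to 5130 bases, and was the same in all 8 libraries for the other 6 genes.

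MYBL1 encodes A-MYB, a MYB factor best known from male germ cells. It had 11.4 and 9.89 CPM in the libraries labelled Zab + MYC O/E, 11.1 and 10.4 CPM in MYC O/E, 0 and 1.60 CPM in Zab, and 8.40 and 14.3 CPM in WT. The libraries labelled Zab held 3 reads together, against 66 reads in WT, and lay below all others, which overlapped. By share of library, this is a 15.2-fold lower level in Zab than in WT, with a 95% counting interval of 4.99 to 75.7. The fitted log2 change was -2.89 (SE 0.44, adjusted p = 3.95e-06). It was -2.21 with Zab replicate 1 left out and -3.60 with Zab replicate 2 left out. MYC O/E over WT was -0.03, with a 95% interval of -0.93 to 0.87.

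MYBL2 encodes B-MYB, which turns on mitotic genes with MuvB and FOXM1 and is itself a classical E2F target. It lies on hg19 chr20:42295754-42345122, plus strand. It had 407 and 387 CPM in the libraries labelled Zab + MYC O/E, 670.1 and 679.7 CPM in MYC O/E, 752 and 786 CPM in Zab, and 420.5 and 436 CPM in WT. In this TMM-scaled CPM the libraries labelled MYC O/E and Zab stood well above the other 4, with Zab highest. The deposited values were 325 and 350 in Zab and 338 and 319 in Zab + MYC O/E. They were 284 and 300 in WT and 648 and 650 in MYC O/E. On that scale MYC O/E was highest and Zab overlapped Zab + MYC O/E, while MYBL2 was still called higher in Zab than in WT. MYC O/E over WT was 0.66 (SE 0.053, adjusted p = 6.57e-11), a ratio of 1.58. Zab over WT was 0.84 (SE 0.053, adjusted p = 3.22e-13), a ratio of 1.80. MYBL2 had 1224 to 2757 reads a library, the most among the 10 genes, and its intervals are the narrowest.

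**Figure D2:**
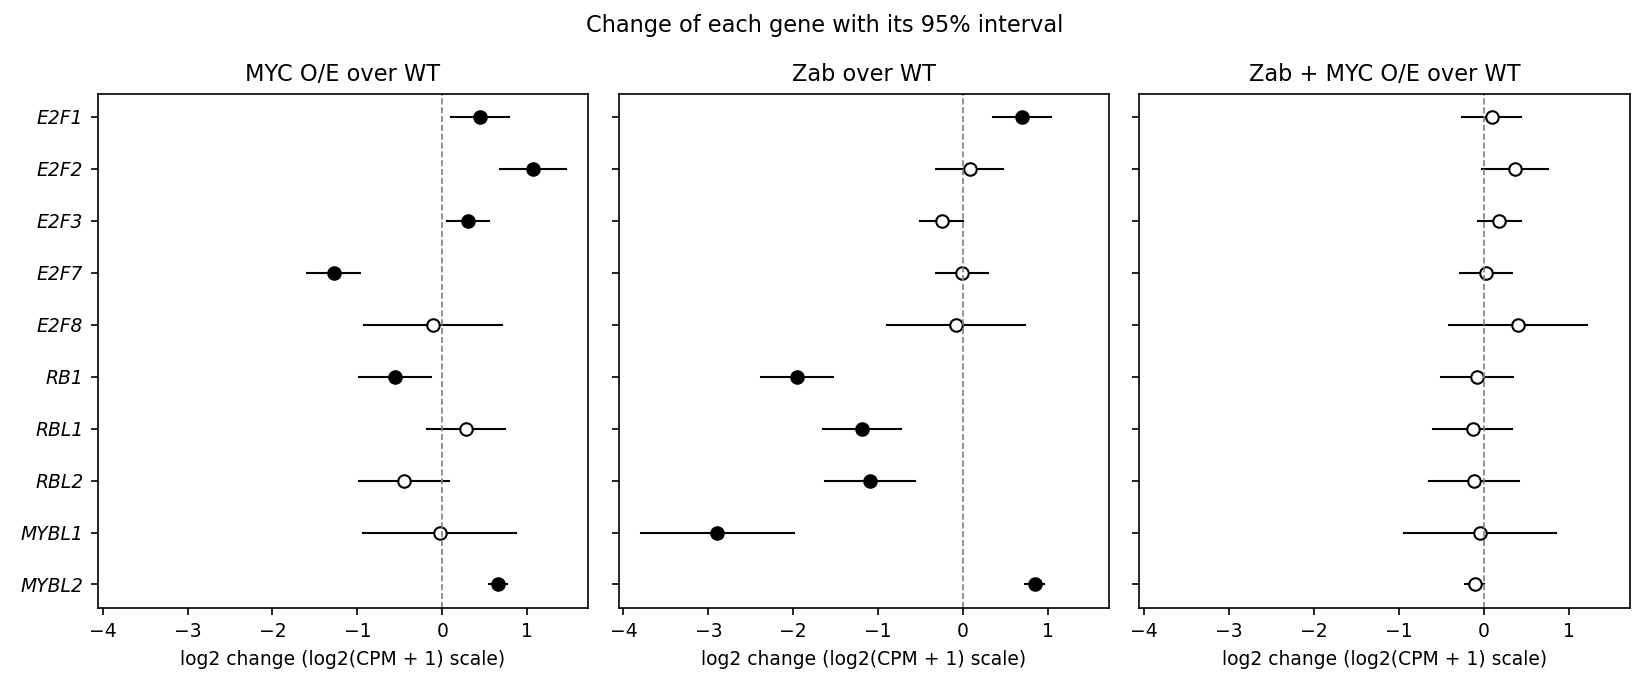
Log2 change of each gene relative to the libraries labelled WT, on the log2(CPM + 1) scale, with its 95% interval from limma. Filled points passed an adjusted p under 0.05. The interval of RB1 lies below 0 for MYC O/E and for Zab, that of MYBL2 above 0 for both, and no point is filled for Zab + MYC O/E.

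Per kilobase of exon, MYBL2 was highest in every group, at 150 ± 5.49 CPM per kb in Zab + MYC O/E, 256 ± 2.56 in MYC O/E, 291 ± 9.26 in Zab and 162 ± 4.18 in WT (SD, n = 2 each). The next gene in the order was E2F3 in Zab + MYC O/E, with 18.3, and E2F1 in MYC O/E, with 20.5 CPM per kb. In both of these groups the library values of E2F1 and E2F3 overlapped. In WT it was E2F3 with 16.2 and then E2F1 with 15.1 CPM per kb, followed by E2F7 with 12.6 and RB1 with 10.98, then RBL2 with 6.57, E2F2 with 5.46 and RBL1 with 5.05. E2F8 with 2.22 and MYBL1 with 2.21 CPM per kb were lowest in WT. In WT the library values of E2F3 and E2F1 overlapped, and so did those of E2F8 and MYBL1, while other neighbours in the order did not overlap. The order changed with the label. In the libraries labelled Zab, E2F1 stood second with 24.4 CPM per kb, against 13.5 for E2F3, and RB1 had 2.72 CPM per kb, near E2F8 with 2.43. In the libraries labelled MYC O/E, E2F2 with 11.7 CPM per kb stood above E2F7 with 5.09.

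**Figure D3:**
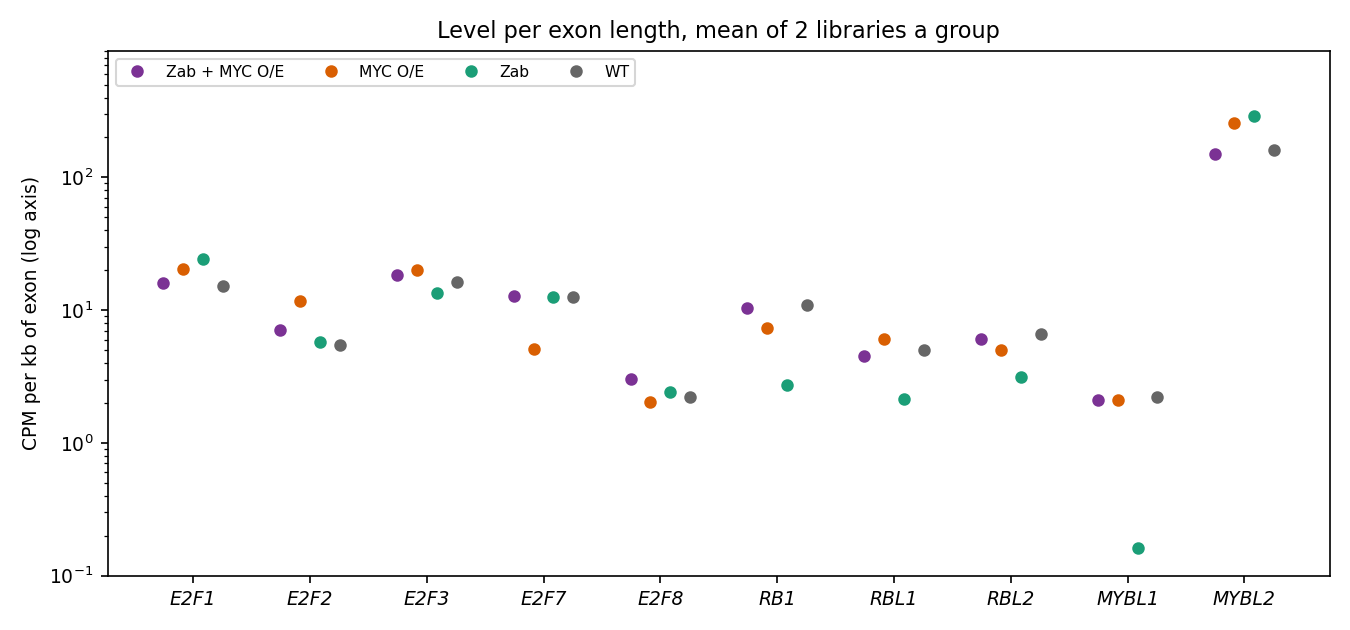
Level of each gene per kilobase of exon (CPM per kb, log axis), mean of the 2 libraries of each label. MYBL2 lies above all other genes in every group, and MYBL1 in the libraries labelled Zab lies lowest, at 0.161 CPM per kb.

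In the libraries labelled Zab + MYC O/E, none of the 10 genes was called against WT by limma, edgeR or DESeq2. Of all tested genes limma called 0.601%, so this is near the background. By edgeR 49 of all tested genes were called higher and 97 lower, and by DESeq2 12 higher and 114 lower. At an unadjusted p under 0.05 there were 0 genes by limma, 1 by edgeR and 0 by DESeq2. MYBL2 was -0.11 (95% interval -0.22 to 0.00020) and E2F2 was 0.36 (95% interval -0.03 to 0.75). RB1 was -0.08 (95% interval -0.51 to 0.34) and E2F7 was 0.03 (95% interval -0.28 to 0.34). On the deposited scale, where all genes shifted by 0.27, E2F2 at 0.63 and E2F3 at 0.45 were called. Of all 11985 tested genes, 1749 were called higher on that scale and 3 lower.

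Against the libraries labelled MYC O/E, those labelled Zab + MYC O/E had more new RNA of E2F7 and less of E2F2 and MYBL2. These 3 of 10 genes were called, 1 higher and 2 lower, where 44.5% of all tested genes were, 21.9% higher and 22.6% lower. E2F7 was 1.31 (SE 0.15, adjusted p = 4.59e-08), a ratio of 2.53. MYBL2 was -0.76 (SE 0.053, adjusted p = 2.77e-12) and E2F2 was -0.70 (SE 0.19, adjusted p = 0.00344). The call of E2F2 was lost without Zab + MYC O/E replicate 1 (adjusted p = 0.0821) or MYC O/E replicate 1 (adjusted p = 0.0802). RB1 at 0.48 missed the threshold in limma (adjusted p = 0.0629) and passed it in edgeR (adjusted p = 0.0126) and without Zab replicate 1 (adjusted p = 0.0171) or Zab replicate 2 (adjusted p = 0.020), which enter only through the shared spread. On the deposited scale 1 gene was called higher and 5 lower, where 1853 of all 11985 tested genes were called higher and 4006 lower.

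Against the libraries labelled Zab, those labelled Zab + MYC O/E had more new RNA of the 3 pocket protein genes, of MYBL1 and of E2F3, and less of E2F1 and MYBL2. These 7 of 10 genes were called, 5 higher and 2 lower, where 49.9% of all tested genes were, 25.8% higher and 24.1% lower. RB1 was 1.88 (SE 0.21, adjusted p = 1.95e-08), a ratio of 3.81. RBL1 was 1.06 and RBL2 0.98. MYBL2 was -0.95 (SE 0.053, adjusted p = 1.98e-14) and E2F1 was -0.60 (adjusted p = 0.00375). On the deposited scale, where all genes shifted by 0.89, 8 genes were called higher and 0 lower, with E2F1 at 0.29 and MYBL2 at -0.04. Of all 11985 tested genes, 8807 were called higher on that scale and 237 lower. With library totals E2F1 lost its call, at -0.37 (adjusted p = 0.0687), and E2F2 gained one, at 0.52 (adjusted p = 0.0228). Calls were also lost for E2F1 without Zab + MYC O/E replicate 1 (adjusted p = 0.0905), and for RBL2 without that library (adjusted p = 0.0716) or Zab replicate 1 (adjusted p = 0.0523). E2F3 at 0.43 lost its call when the trend along gene span was removed, at 0.13 (adjusted p = 0.418), and without Zab + MYC O/E replicate 2 (adjusted p = 0.0831). E2F8 at 0.49 was called only without Zab replicate 2, at 1.19 (adjusted p = 0.0136), and on the deposited scale.

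The libraries labelled MYC O/E and Zab, which were alike in their low ADAR level, differed in 8 of the 10 genes, where 56.3% of all tested genes were called, 29.6% higher and 26.7% lower. New RNA was higher in MYC O/E for E2F2 at 0.99 (adjusted p = 7.18e-05), E2F3 at 0.55, RB1 at 1.40 (adjusted p = 1.86e-06), RBL1 at 1.47, RBL2 at 0.65 (adjusted p = 0.0341) and MYBL1 at 2.86. It was lower for E2F7 at -1.27 (adjusted p = 5.38e-08) and for MYBL2 at -0.19 (adjusted p = 0.00375). MYBL2 lost its call with library totals, at -0.041 (adjusted p = 0.519). Its sign turned on the deposited scale, to 0.94, where all genes shifted by 1.113. On that scale 9 genes were called higher and 0 lower, with E2F7 at -0.16 (adjusted p = 0.335). Of all 11985 tested genes, 8999 were called higher on that scale and 599 lower. The call of RBL2 was lost in DESeq2 (adjusted p = 0.133), without the filter on low reads (adjusted p = 0.0753), with the span trend removed (0.42, adjusted p = 0.172), with the WT and Zab + MYC O/E pairs as 1 sample each (adjusted p = 0.0776) and without MYC O/E replicate 2, at 0.44, or Zab replicate 1, at 0.28.

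The labels form a 2 by 2 layout, so the difference between Zab + MYC O/E over MYC O/E and Zab over WT was also tested, with the sign of that difference. It was called for 8 of the 10 genes, 5 positive and 3 negative, where 53.1% of all tested genes were called, 28.3% positive and 24.8% negative. It was positive for E2F7, RB1, RBL1, RBL2 and MYBL1 and negative for E2F1, E2F2 and MYBL2. E2F3, at 0.13 (95% interval -0.23 to 0.48), and E2F8, at 0.60 (95% interval -0.55 to 1.75), were not called. E2F3 was called with library totals, at 0.42 (adjusted p = 0.0405), and on the deposited scale, at 0.53 (adjusted p = 0.0111), and E2F8 without Zab replicate 2, at 1.30 (adjusted p = 0.0297). With MYC at the WT level under the label Zab + MYC O/E, the layout is that of the labels and not of the measured MYC. The difference is made up of the changes against WT given above and adds no separate measurement.

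The known partners, regulators and targets of these factors were read beside the 10 genes. Their counts stand against the share of all tested genes called, which in MYC O/E over WT was 44% (22.2% higher, 21.8% lower). In Zab over WT it was 49.7% (23.8% higher, 25.9% lower). The 13 partners were other E2Fs, DP factors, MuvB subunits, MYB, FOXM1 and DYRK1A. Of these, 4 were higher and 3 lower in MYC O/E than in WT, and the number called is near the background. Their median log2 change was 0.08 against -0.01 over all tested genes. TFDP1, the main DP partner, rose by 1.38 (adjusted p = 9.43e-11) and FOXM1, a mitotic activator that works with MYBL2, by 0.50 (adjusted p = 6.23e-07). LIN54, the DNA-binding subunit of MuvB, fell by 0.80 (adjusted p = 0.00198) and E2F5, a repressor E2F, fell by 1.24 (adjusted p = 0.00357). In Zab against WT, 2 partners were higher and 5 lower, with a median of -0.23 against -0.05 over all tested genes. FOXM1 rose by 0.78 (adjusted p = 1.88e-10), and LIN54 fell by 1.86 (adjusted p = 1.62e-08), E2F5 fell by 2.21 (adjusted p = 4.16e-06) and E2F6 fell by 0.91 (adjusted p = 8.86e-05). Between Zab + MYC O/E and WT no partner was called.

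Of 16 cyclins, kinases and inhibitors that act on RB, 13 passed the filter. CDKN2B was at 0 in all 8 libraries and CDKN2A at 0 in 6 of them, and the CDKN2A product p16 is known to be silent in U2OS. In MYC O/E against WT, 6 were higher and 2 lower, with a median of 0.29, where 22.2% of all tested genes were higher and 21.8% lower. The cyclin genes CCND2 and CCND1 rose by 1.23 (adjusted p = 7.56e-19) and 1.21 (adjusted p = 4.73e-13), and the kinase gene CDK6 by 1.04 (adjusted p = 7.99e-12). CDKN1A, which encodes the kinase inhibitor p21, fell by 0.89 (adjusted p = 1.39e-11). In Zab against WT, 5 were higher and 3 lower, with a median of 0.28, where 23.8% of all tested genes were higher and 25.9% lower. There CDK4 rose by 0.92 (adjusted p = 3.59e-11) and CCND1 by 0.95 (adjusted p = 5.51e-11), while CDK6 fell by 0.79 (adjusted p = 1.69e-09) and CDKN1A fell by 0.43 (adjusted p = 4.64e-06). None of the 13 was called between Zab + MYC O/E and WT.

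Of 48 G1/S genes known as E2F targets, 18 were higher and 5 lower in MYC O/E than in WT, with a median of 0.25. The number called is near the 44% of all tested genes, of which 22.2% were higher and 21.8% lower. MCM4 and MCM2, subunits of the replicative helicase, rose by 0.88 (adjusted p = 3.85e-10) and 0.80 (adjusted p = 3.41e-09), and the repair gene UNG by 1.42 (adjusted p = 5.63e-10). The DNA ligase gene LIG1 fell by 0.59 (adjusted p = 0.000668). In Zab against WT, 17 were higher and 16 lower, with a median of 0.04. Of all tested genes 49.7% were called there, 23.8% higher and 25.9% lower. The nucleotide synthesis genes TK1 and RRM2 rose by 1.31 (adjusted p = 7.58e-11) and 0.76 (adjusted p = 2.54e-10), and MCM7 by 0.73 (adjusted p = 1.46e-12). DBF4, the partner of the CDC7 kinase, fell by 2.24 (adjusted p = 3.55e-11) and PCNA, the sliding clamp, fell by 0.86 (adjusted p = 3.74e-08). None of the 48 was called between Zab + MYC O/E and WT. Between Zab + MYC O/E and MYC O/E, 2 were higher and 20 lower, with a median of -0.26 against 0.02 over all tested genes, where 21.9% of all tested genes were higher and 22.6% lower.

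Of 36 G2 and mitotic genes, targets of MuvB with MYBL2 and FOXM1, 12 were higher and 3 lower in MYC O/E than in WT, with a median of 0.12. This number called is also near the 44% of all tested genes, of which 22.2% were higher and 21.8% lower. The kinase gene PLK1 rose by 1.09 (adjusted p = 5.77e-11), BIRC5, which encodes survivin, by 1.16 (adjusted p = 2.09e-10) and CDC20, an activator of the anaphase-promoting complex, by 0.47 (adjusted p = 1.15e-07). The 3 called lower were PTTG1 at -0.41 (adjusted p = 0.00321), TOP2A at -0.22 (adjusted p = 0.00467) and CCNB2 at -0.37 (adjusted p = 0.0299). In Zab against WT, 13 were higher and 14 lower, with a median of -0.10. Of all tested genes 49.7% were called there, 23.8% higher and 25.9% lower. CDC20 rose by 0.94 (adjusted p = 1.81e-13) and PLK1 by 1.08 (adjusted p = 6.37e-11), while the kinetochore gene CENPF fell by 1.86 (adjusted p = 1.51e-15) and TOP2A, topoisomerase II alpha, fell by 1.09 (adjusted p = 3.72e-14). Between Zab + MYC O/E and WT, CENPE, a mitotic kinesin, rose by 1.88 (adjusted p = 1.51e-05) and CCNB1, cyclin B1, fell by 0.30 (adjusted p = 0.0230). These were the only 2 of the 36 called there. Between Zab + MYC O/E and MYC O/E, 3 were higher and 16 lower, with a median of -0.22. Of all tested genes 21.9% were higher and 22.6% lower in that comparison.

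In MYC O/E against Zab, where 56.3% of all tested genes were called, 29.6% higher and 26.7% lower, 8 partners were higher and 2 lower. Those with the smallest p included TFDP1, which rose by 1.29 (adjusted p = 1.92e-10), and TFDP2, another DP partner, which rose by 1.41 (adjusted p = 6.45e-06). The 2 called lower were FOXM1 at -0.28 (adjusted p = 0.000818) and LIN37 at -1.76 (adjusted p = 0.00303). Of the 13 regulators, 4 were higher and 6 lower. CDK6 rose by 1.83 (adjusted p = 2.03e-17) and SKP2, which targets p27 for degradation, by 1.76 (adjusted p = 1.58e-11), while the inhibitor gene CDKN2C fell by 1.67 (adjusted p = 0.000396). Of the G1/S targets 21 were higher and 9 lower, with DBF4 higher by 2.67 (adjusted p = 5.69e-13) and RRM2 at -0.97 (adjusted p = 1.00e-12). Of the G2 and mitotic genes 16 were higher and 8 lower, with CENPF higher by 2.01 (adjusted p = 1.60e-16) and CDC20 at -0.46 (adjusted p = 1.12e-07).

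**Figure D4:**
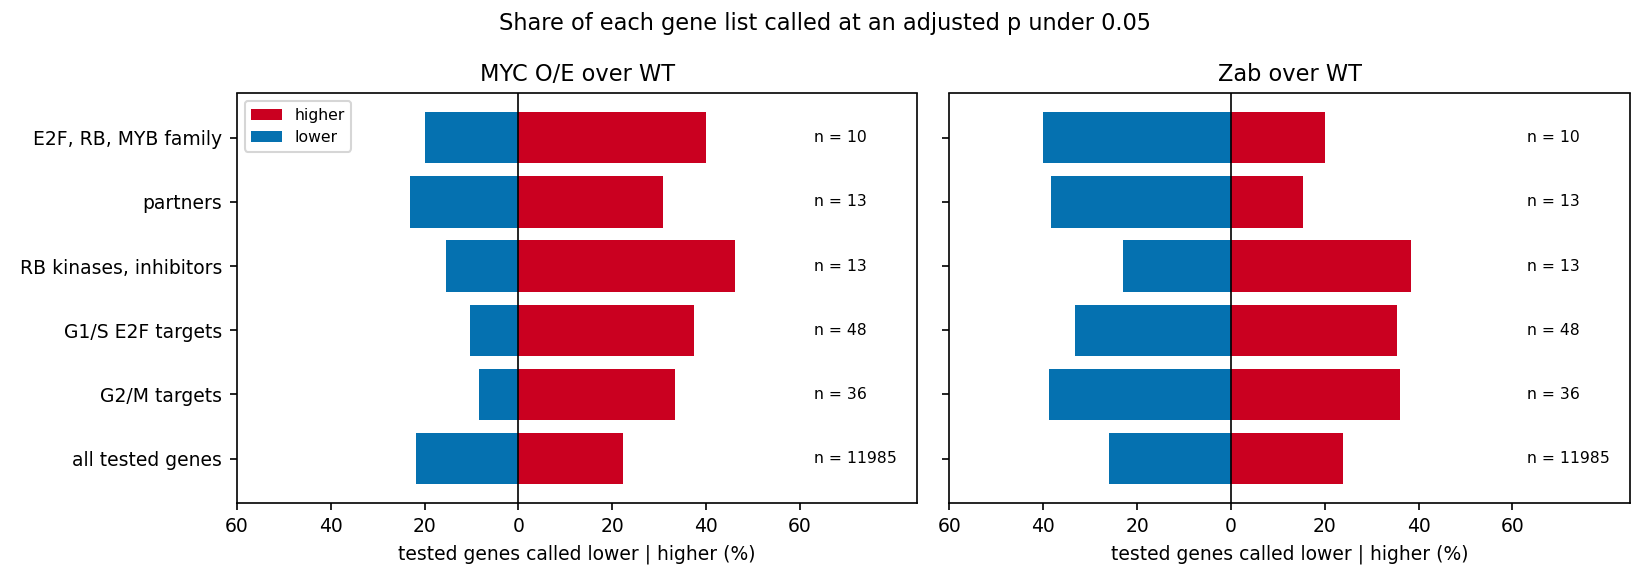
Share of the tested genes of each list called lower (left of 0) or higher (right of 0) relative to the libraries labelled WT, in percent of the n tested genes of the list. In MYC O/E the G1/S and G2/M lists were called higher more often than lower, and in Zab the calls of both lists were split. The lists of E2F, RB and MYB genes are small, and the bars describe counts without a test.

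Gene span moved with the change in the libraries labelled Zab. The median log2 change of Zab over WT was 0.37 for genes spanning up to 5 kb, 0.16 for 5 to 20 kb, -0.08 for 20 to 50 kb, -0.25 for 50 to 100 kb, -0.27 for 100 to 200 kb and -0.41 above 200 kb. The 4 genes that fell span 178 kb (RB1), 99.6 kb (RBL1), 57.2 kb (RBL2) and 51.0 kb (MYBL1). RB1 at -1.96 lay below the 10th percentile of its span class, which was -1.31, and MYBL1 at -2.89 below that of its class, which was -1.33. RBL1 at -1.19 and RBL2 at -1.10 lay inside that range. MYBL2, at 49.4 kb, lay above the 90th percentile of its class, which was 0.73. With the trend along span removed, RB1 was -1.62 (adjusted p = 2.91e-07), RBL1 -0.89 and RBL2 -0.88, and all 6 calls in Zab over WT were kept. In MYC O/E over WT the medians of the span classes lay between 0.03 and -0.06 up to 200 kb and at -0.28 above it.

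**Figure D5:**
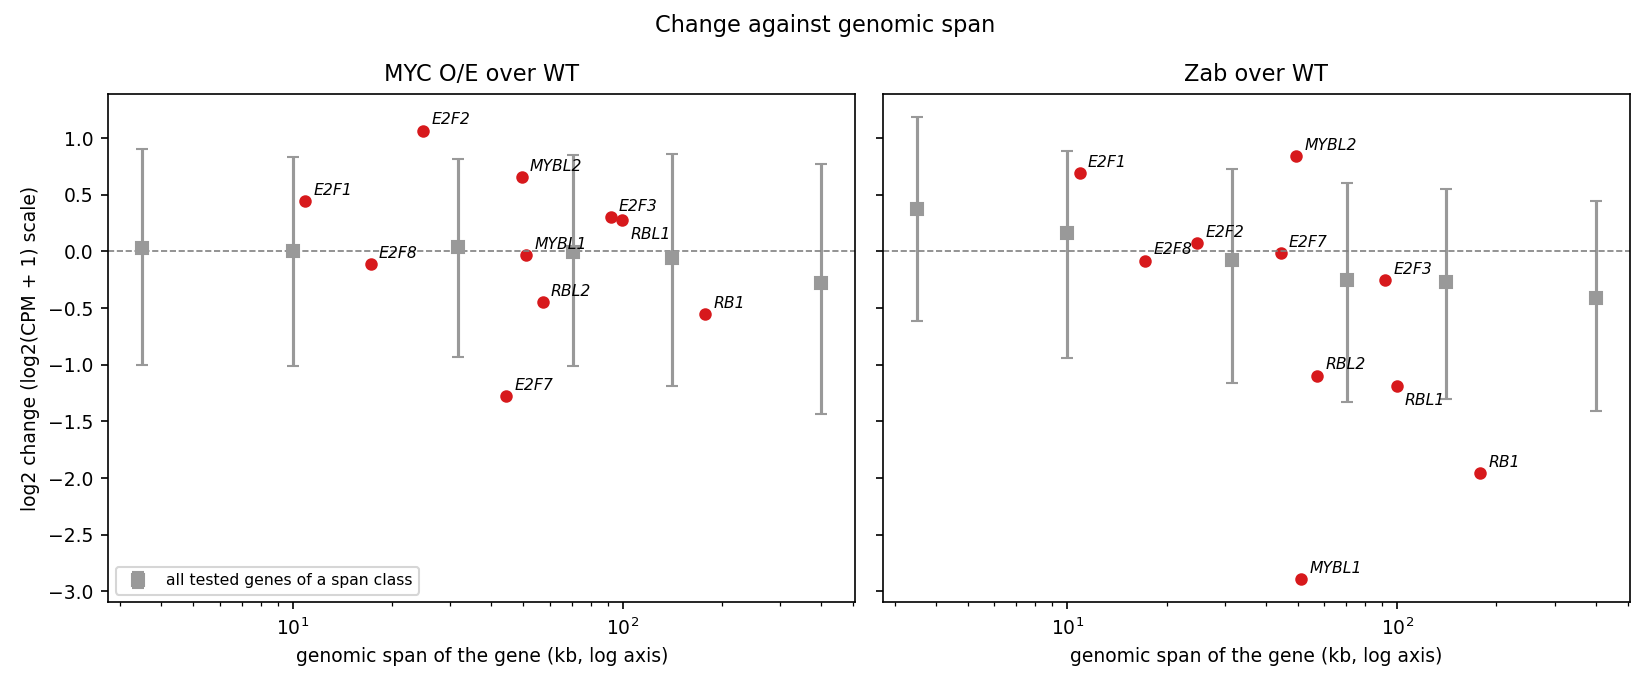
Log2 change on the log2(CPM + 1) scale against genomic span (kb, log axis) for MYC O/E over WT and Zab over WT. Red points are the 10 genes, and grey squares with bars are the median and the 10th to 90th percentile of all tested genes of a span class. In Zab over WT the median is 0.37 in the shortest and -0.41 in the longest class, and RB1 and MYBL1 lie below the bars of their classes.

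The genes nearest to E2F1 in the pattern of the 4 group means, each centred on its own mean, were PHLDA3, CSNK1D, AMPD2, COX4I1 and RSRP1, with root mean square differences of 0.0126, 0.0183, 0.0198, 0.02001 and 0.0216 on the log2 scale among 10760 genes compared. Among the 10 genes the nearest to E2F1 was MYBL2, at rank 958 with a difference of 0.158. This likeness rests on 4 group means.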

How the data were processed

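TT-seq reads of 8 U2OS libraries, 2 per genotype label, were used as deposited. Tools named in the submitters' processing notes, without roles, are STAR, bedtools 2.29.2, SAMtools 1.11 and Trim Galore 0.6.6, with builds hg19 and dm6. Per the file headers, the authors counted tags over exons of hg19 RefSeq genes with HOMER and kept 1 transcript per symbol. The deposited values are a signal: each is a whole number of reads multiplied by 1 step per library, and what sets the step is not stated. Dividing by that step gave 99.96% to 100% whole reads within 0.02 reads, of which 77.2% to 82.7% of the values from 1 to 20 were even.

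Genes were kept by edgeR 4.0.16's filterByExpr (minimum 10 reads). The test was limma 3.58.1 with a trend on log2(CPM + 1), computed with TMM scaling of the deposited values (R 4.3.3). All 8 libraries entered one fit by group, with 4 residual degrees of freedom, Benjamini-Hochberg adjustment over 11985 genes and a threshold of 0.05. Fold changes on that scale understate those of low genes. An exact permutation of 2 libraries against 2 reaches no p under 0.333. The ratio of MYBL1 has a 95% exact counting interval, which covers counting error only and is too narrow where reads come in twos. Comparisons were the 6 pairs of labels and the difference of differences. Alternatives were edgeR and DESeq2 1.42.0 on the recovered reads, other scalings, a pseudocount of 0.5, no filter, a replicate block, libraries left out, the WT and Zab + MYC O/E pairs as 1 sample each, and a lowess trend along gene span removed.

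The members and gene lists were chosen with earlier results of these data known. The genes named from a list are up to 3 per direction with the smallest p among called genes of at least 5 CPM on average, in MYC O/E, Zab and Zab + MYC O/E against WT and in MYC O/E against Zab. Some genes that this rule takes are summarised only by counts. The 5 genes most like E2F1 were also named. Promoters come from RefSeq's GRCh38.p14 table, keeping windows that adjoin the gene start. Same-numbered libraries did not deviate together (correlations of -0.026 to 0.0099). Libraries of a group differed by about the counting error, so this cannot show whether numbers pair samples.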

Additional observations from a re-analysis of the deposited data

Results flagged for a closer look

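The difference between Zab + MYC O/E over MYC O/E and Zab over WT passed the test itself for 8 of the 10 genes (limma, adjusted over 11985 genes), as it did for 53.1% of all tested genes. The value was -1.05 for E2F1 (adjusted p = 0.000517), -0.78 for E2F2 (adjusted p = 0.0167) and -1.61 for MYBL2 (adjusted p = 3.18e-16). It was 1.32 for E2F7 (adjusted p = 7.82e-06) and 2.43 for RB1 (adjusted p = 7.51e-08). RBL1 had 0.78 (adjusted p = 0.0417), RBL2 had 1.43 (adjusted p = 0.00173) and MYBL1 had 2.88 (adjusted p = 0.000320). All 3 genes with a negative value had higher levels in MYC O/E than in WT, and the 4 genes RB1, RBL1, RBL2 and MYBL1 had lower levels in Zab than in WT. None of these 8 genes was called between Zab + MYC O/E and WT. The value equals Zab + MYC O/E over WT less MYC O/E over WT and less Zab over WT. It therefore largely restates the changes against WT given above and is not a separate result. The call of RBL1 was lost in DESeq2 (adjusted p = 0.112), with the span trend removed (adjusted p = 0.283), with the WT and Zab + MYC O/E pairs as 1 sample each (adjusted p = 0.177) and without any 1 library except Zab replicate 2 (adjusted p = 0.0729 to 0.126). That of E2F2 was lost with library totals (-0.49, adjusted p = 0.125), on the deposited scale (-0.38, adjusted p = 0.227), with those pairs as 1 sample each (adjusted p = 0.0854) and without Zab + MYC O/E replicate 1 (adjusted p = 0.104) or MYC O/E replicate 1 (adjusted p = 0.102). The MYC level under the label Zab + MYC O/E was that of WT, so a difference between labels cannot be told apart from a difference in what the libraries hold.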

How the results depend on the processing

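The calls of the 10 genes in Zab over WT numbered 6 under each alternative except library totals (7) and the deposited scale (8). Of all 11985 tested genes, library totals called 1888 higher and 4149 lower in that comparison. The deposited scale called 575 higher and 6882 lower. In MYC O/E over WT the 6 calls became 3 without the filter on low reads and 3 with the WT and Zab + MYC O/E pairs as 1 sample each, and 3 to 6 with 1 library left out (3 without WT replicate 1, MYC O/E replicate 1 or MYC O/E replicate 2). The calls kept in the 1-sample setting were E2F2 at 1.07, MYBL2 at 0.66 and E2F7 at -1.27. Fewer of all tested genes were called in that setting too. Without the filter, 2452 of all 15923 genes were called higher in MYC O/E over WT and 2435 lower. On the deposited scale there were 2 calls in Zab + MYC O/E over WT, against 0, and 6 in Zab + MYC O/E over MYC O/E, against 3. Of all tested genes, that scale called 1749 higher and 3 lower in Zab + MYC O/E over WT. In Zab + MYC O/E over MYC O/E it called 1853 higher and 4006 lower. The deposited scale split MYC O/E over WT into 5 higher and 1 lower and Zab over WT into 1 higher and 7 lower. Library totals gave 2 and 2, and 2 and 5. In MYC O/E over WT, 5838 of all tested genes were called higher and 1149 lower on the deposited scale. With library totals 2391 were called higher there and 2893 lower. Library totals shifted the median of all genes by -0.24 in Zab over WT and by 0.19 in MYC O/E over Zab. The replicate block changed no call, for instance -1.28 for E2F7 in MYC O/E over WT. Whether the numbers pair the samples cannot be told from these libraries. The cause of these changes was not tested.

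Signs turned for the following values, of which E2F1 in Zab + MYC O/E over Zab and MYBL2 in MYC O/E over Zab had been called. On the deposited scale, MYC O/E over WT was 0.33 for E2F8, 0.031 for RBL2 and 0.43 for MYBL1, and Zab over WT was -0.53 for E2F2. Zab + MYC O/E over WT was 0.19 for RB1, 0.13 for RBL1, 0.16 for RBL2, 0.21 for MYBL1 and 0.17 for MYBL2. Zab + MYC O/E over Zab was 0.29 for E2F1, and MYC O/E over Zab was 0.86 for E2F1, 0.94 for E2F8 and 0.94 for MYBL2. With library totals, E2F2 was -0.12 in Zab over WT, MYBL1 0.073 in Zab + MYC O/E over MYC O/E and E2F8 0.099 in MYC O/E over Zab. In Zab over WT, E2F8 was 0.12 by edgeR and 0.13 by DESeq2, and E2F7 0.0095 by DESeq2. With the span trend removed, Zab over WT was 0.043 for E2F3 and 0.15 for E2F7, Zab + MYC O/E over Zab -0.13 for E2F7, and the difference of differences -0.22 for E2F3.

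With 1 library left out, MYC O/E over WT ranged from -0.23 to 0.0066 for E2F8 and from -0.38 to 0.32 for MYBL1. Zab over WT ranged from -0.064 to 0.21 for E2F2, from -0.17 to 0.14 for E2F7 and from -0.79 to 0.62 for E2F8. Zab + MYC O/E over WT ranged from -0.092 to 0.27 for E2F1, from -0.033 to 0.087 for E2F7, from -0.19 to 0.030 for RB1, from -0.33 to 0.097 for RBL2 and from -0.39 to 0.30 for MYBL1. Zab + MYC O/E over MYC O/E ranged from -0.11 to 0.077 for MYBL1. Zab + MYC O/E over Zab ranged from -0.11 to 0.20 for E2F7 and from -0.21 to 1.19 for E2F8. MYC O/E over Zab ranged from -0.73 to 0.68 for E2F8, and the difference of differences from -0.10 to 1.30 for E2F8. Where a group was left with 1 library, it was assumed to vary like the other groups. Depth limits E2F8 and MYBL1 most, with 7 and 0 reads in their lowest library.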
